A study of Mus musculus with 3 samples.

Results

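MicroRNA genes were examined in an H3K27ac ChIP-seq table of mouse myeloid-derived suppressor cells (MDSC), immature myeloid cells found in tumours. H3K27ac is the acetylation of lysine 27 of histone H3, a mark of active promoters and enhancers. A region belonged to the set if its list of assigned genes held a symbol beginning with Mir or Mirlet and a number, and if the start given for that gene lay within 10000 bp. The rule took 304 of 22399 regions and 193 of 13443 gene symbols, joined in 357 pairs of a region and a gene. Of these symbols, 192 are microRNA genes and 1, Mir22hg, is a host transcript whose regions also list Mir22. Each region was counted once.

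The cells were sorted as CD45+, CD11b+, Ly6C+, Ly6G+ or Ly6G-, and F4/80- from subcutaneous tumours of female SCID.beige mice, an immunodeficient strain without T and B lymphocytes, aged 6 to 8 weeks. The tumour cells named are MDA.MB.231-X1.1, from a human breast cancer line, and CT26, from a mouse colon carcinoma, and tnbc stands in both ChIP titles. The table holds 1 library from mice given vehicle (MCT) and 1 from mice given 25 mg/kg GNE-781, an inhibitor of the bromodomain of the acetyltransferases CBP and EP300. Both were given by oral gavage, 2 doses a day for 7 days. All animals carried a tumour, and the labels do not give the number of animals behind a library. An input library has no column in the table and was not used here.

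A microRNA gene is transcribed into a long primary transcript, often from the promoter of a host gene or of a neighbouring gene. Drosha and Dgcr8 cut a hairpin out of it in the nucleus, Xpo5 exports the hairpin, Dicer1 cuts it to the mature microRNA, and an Argonaute protein carries the mature strand to messenger RNAs. Bases 2 to 8 of the mature strand, the seed, pair with the target, so microRNAs with the same seed form a family. In myeloid cells, miR-223 is known as a granulocyte microRNA, miR-142 as a microRNA of blood cells, and let-7 as a family held back by Lin28 proteins in early development.

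The mature sequences that lead the results are shown from RefSeq (GRCm38.p6), 5' to 3', with the seed in capitals. The let-7 family had the most genes of the families sharing a seed, and all its regions were below the median of the table.
let-7a-5p: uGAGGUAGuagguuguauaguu
let-7d-5p: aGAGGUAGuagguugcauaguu
let-7e-5p: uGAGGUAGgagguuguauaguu
let-7f-5p: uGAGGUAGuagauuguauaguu
let-7g-5p: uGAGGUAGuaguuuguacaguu
let-7i-5p: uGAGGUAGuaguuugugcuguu

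The members with the miR-15 and miR-16 seed, AGCAGCA, were listed in 2 regions, both of them strong in the vehicle library and called in both libraries.
miR-15b-5p: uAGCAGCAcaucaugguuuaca
miR-16-5p: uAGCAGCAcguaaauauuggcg
miR-195a-5p: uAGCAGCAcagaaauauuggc
miR-497a-5p: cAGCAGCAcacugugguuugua

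The miR-26 family had the most regions of the families sharing a seed, and miR-26a-5p is made from both Mir26a-1 and Mir26a-2. The seed of miR-25, miR-92b and miR-367 is shown beside it because these come from separate loci.
miR-26a-5p: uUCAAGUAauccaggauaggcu
miR-26b-5p: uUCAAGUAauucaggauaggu
miR-25-3p: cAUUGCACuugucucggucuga
miR-92b-3p: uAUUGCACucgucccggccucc
miR-367-3p: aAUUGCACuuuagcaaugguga

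The microRNAs of the Mir142 and Mir23a loci, described in detail with the myeloid list, and of Mir223, Mir21 and Mir186 are shown for comparison.
miR-142a-5p: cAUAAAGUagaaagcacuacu
miR-142a-3p: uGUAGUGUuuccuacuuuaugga
miR-23a-3p: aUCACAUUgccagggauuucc
miR-27a-3p: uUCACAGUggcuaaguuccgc
miR-24-3p: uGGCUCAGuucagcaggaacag
miR-223-3p: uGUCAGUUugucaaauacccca
miR-21a-5p: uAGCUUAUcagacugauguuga
miR-186-5p: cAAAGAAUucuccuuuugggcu

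In all, 254 mature sequences of 155 genes were read, with 229 different seeds, of which 5 were shared by 3 or more genes. The let-7i hairpin, which lies inside the region with the largest difference among those holding a hairpin, is shown with both mature arms in capitals (GRCm38, chr10:122985640-122985724, minus strand).
let-7i hairpin: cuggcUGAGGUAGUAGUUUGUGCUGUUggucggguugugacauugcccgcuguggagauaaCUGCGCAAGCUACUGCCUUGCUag

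All 304 microRNA regions had lower H3K27ac signal with the inhibitor than with vehicle. Signal here is fragment pileup as deposited, averaged along the region. The median was 15.7 with vehicle (range 9.92 to 60.8) and 4.92 with inhibitor (range 1.33 to 13.6). The difference, log2(inhibitor + 1) minus log2(vehicle + 1), had a median of -1.60, quartiles of -1.85 and -1.33, and a range of -3.28 to -0.51. A value at least 2-fold lower, taken on the scale of signal + 1, was found in 285 of the 304 regions (93.8%), where the share of all regions was 93.4%. None was higher with inhibitor by any amount. All of them had an enriched interval called by the authors with vehicle, and no region of the table with such a call was higher. Over all 22399 regions, 74 were higher, each without that call, and 0.138% were at least 2-fold higher. The median difference of all 22399 regions was -1.61, with quartiles of -1.87 and -1.33. Relative to that shift the median of the microRNA regions was 0.00380, so its direction turned, and 151 regions (49.7%) lay below the median of the table. As a group, the microRNA regions therefore lay at the level of the whole table. There were no replicates and no test was run, so each difference describes these 2 libraries. The depth is unknown, whether the deposited values are scaled by the added Drosophila chromatin is not given in the sources used here, and fewer cells of a type and less mark per cell cannot be told apart.

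**Figure D1:**
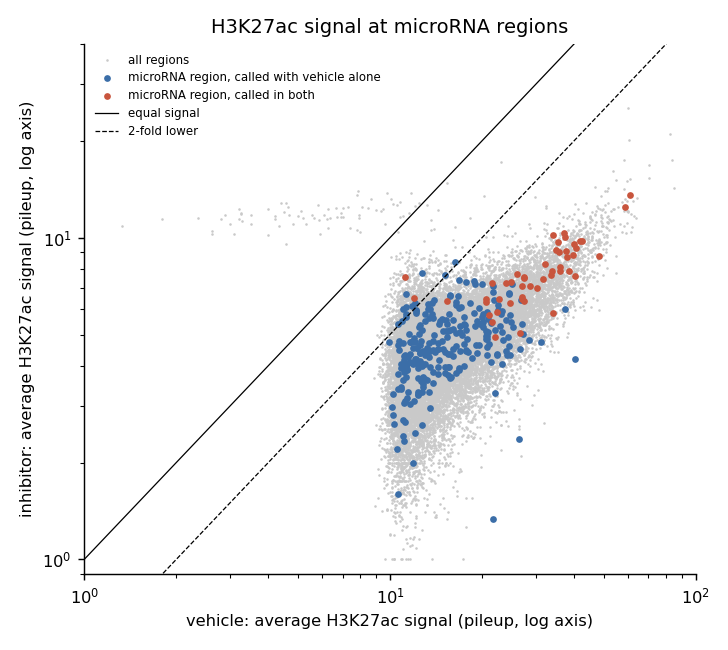
Average H3K27ac signal of each region in the inhibitor library (vertical, log axis) against the vehicle library (horizontal, log axis). Grey points are all regions except 1 listed at 0 with inhibitor, coloured points are the 304 microRNA regions, and the lines mark equal signal and 2-fold lower signal. All microRNA regions lie below the line of equal signal, and those called in both libraries lie mostly at the strong end.

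The sorted cell type was checked on its markers. Regions were assigned to Ptprc (CD45, 5 regions), Itgam (CD11b, 7), Ly6c2 (3) and Ly6g (1), and none to Ly6c1. Adgre1, which encodes F4/80 and was sorted against, had 1 region, and Pecam1, a marker of endothelial cells that myeloid cells also express, had 6. No region was assigned to Cd3e of T cells, Epcam of epithelial cells or Col1a1 of fibroblasts.

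An interval, the authors' own call of enrichment, was called in all 304 microRNA regions with vehicle, against 99.6% of all regions. With inhibitor it was called in 49 (16.1%), against 10.3% of all regions and 13.9% of the 13520 regions with the start of another gene within 10000 bp. The 49 regions called in both libraries had a median vehicle signal of 31.7 and a median inhibitor signal of 7.56, where the other 255 had 14.4 and 4.64. The median difference was -1.88 in the former and -1.53 in the latter, and single regions departed from these medians in both directions. Over the whole table, regions called in both libraries had a median difference of -1.87 and those called with vehicle alone -1.58. The microRNA regions called in both had a median length of 2526 bp, against 1469 bp for the others, and the same medians over the table were 2533 bp and 1344 bp. A CpG island was overlapped by 85.7% and 41.2% of the microRNA regions, and by 74.7% and 34.4% over the table.

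MicroRNA regions were seldom the microRNA's alone. Only 11 regions listed no other gene, and the start of another gene was nearer than the microRNA start in 170. Several gene promoters overlapped in 54.6% of microRNA regions, where the microRNA start itself counts as a promoter, so the selection in part fixes this share. It was 21.8% of the regions with the start of another gene within 10000 bp. The start of another gene lay within 2500 bp in 163 regions, which had a median vehicle signal of 18.9, a median difference of -1.67 and 34 regions called with inhibitor (20.9%). A microRNA start alone lay within 2500 bp in 40 regions, with 13.4, -1.44 and 4 regions called. The other 101 regions had no listed start within 2500 bp of their centre, with 13.2, -1.50 and 11 regions called. Recentred on all regions, these medians were -0.07, 0.16 and 0.11, and 95, 17 and 39 regions of the respective subsets lay below the median of the table. Distances were taken from the centre of a region, so a start can lie inside a long region and still be farther than 2500 bp. Of the 101 regions, 62 overlapped a promoter and 19 overlapped several. Several promoters also overlapped in 16 of the 40 regions.

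MicroRNA regions with a CpG island had a lower median difference than those without, and so had all regions. The 147 microRNA regions with an island had a median difference of -1.73 and 28.6% called with inhibitor, and all regions with an island had -1.76 and 19.4%. The 157 without an island had -1.48 and 4.46%, and all regions without one had -1.53 and 4.59%. In 10 classes of vehicle signal, the median of the microRNA regions minus that of the other regions ranged from -0.09 to 0.13. It was below 0 in 2 classes and above 0 in the remaining ones. The median of the other regions itself fell from -1.31 in the weakest class to -2.05 in the strongest. Vehicle signal is a term of the difference, so part of this order can be built in. In the strongest class, 33 of 39 microRNA regions (84.6%) were called with inhibitor, against 58.9% of the other regions. The share called was higher in the microRNA regions than in the others in 5 of the 10 classes and lower in 5, and microRNA minus other ran from -3.66 to 25.7 percentage points. These are descriptions without a test.

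**Figure D2:**
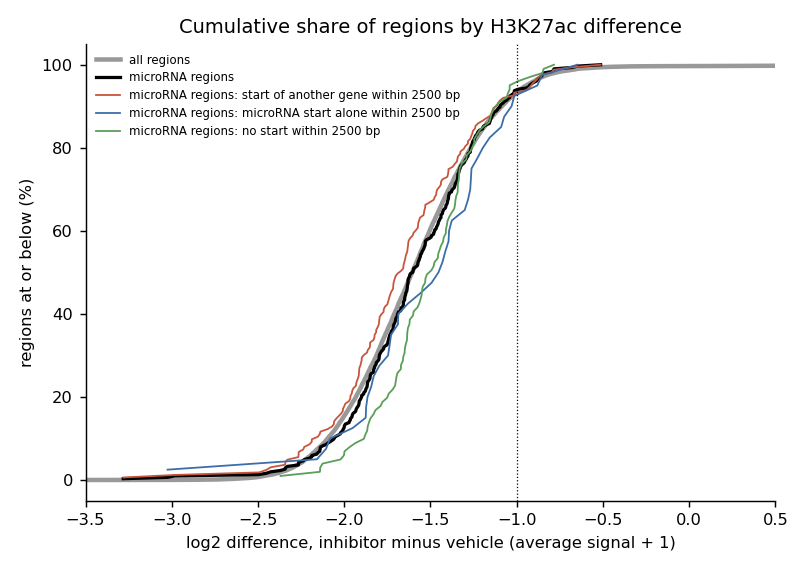
Cumulative share of regions (vertical, %) at or below a log2 difference, inhibitor minus vehicle (horizontal). Curves show all regions, the microRNA regions and 3 subsets by the gene starts within 2500 bp of the region centre. The axis ends at -3.5 and 0.5, and the dotted line marks 2-fold lower signal. The curve of the microRNA regions follows that of all regions, with the subset at another gene's start to the left of the other subsets over most of the range.

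The median difference showed no steady order with distance from the microRNA start. It was -1.60 in the 51 regions centred within 1000 bp, -1.69 in 43 regions from there to 2500 bp, -1.51 in 74 regions from there to 5000 bp and -1.63 in 136 regions up to 10000 bp. Regions upstream of the start (180) had a median of -1.63 and those downstream or at it (124) had -1.55. The 46 regions that covered a RefSeq hairpin had a median difference of -1.66, and 14 of them (30.4%) were called with inhibitor. The 258 others had -1.59 and 13.6%. Only 156 of the 193 genes matched a RefSeq hairpin, so a region over an unmatched microRNA counts among the others. The regions at the starts of Mir1893 and Mir150 are among these. The 46 regions were also longer (median 2121.5 against 1512.5 bp) and stronger with vehicle (20.3 against 15.3). A CpG island was overlapped by 60.9% of them, against 46.1% of the others. The shares called were not compared at equal length or signal. Just inside the limit lay a region of Mir21 at 9999 bp (11.0 with vehicle, 2.41 with inhibitor, difference -1.82), and just outside lay one of Mir140 at 10067 bp (22.1, 3.52 and -2.35).

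**Figure D3:**
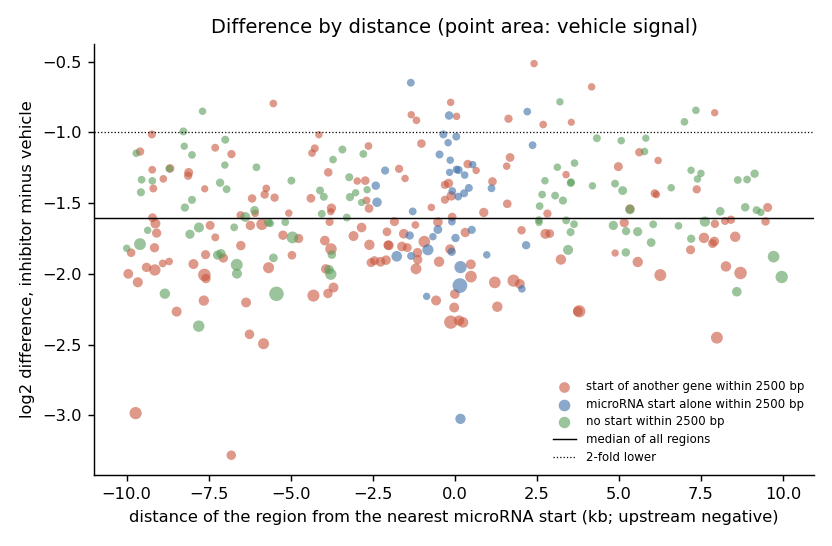
Log2 difference of each microRNA region, inhibitor minus vehicle (vertical), against its distance from the nearest microRNA start (horizontal, kb, upstream negative). Colour gives the gene starts within 2500 bp of the region centre, and point area the vehicle signal. Lines mark the median of all regions (-1.61) and 2-fold lower signal. Differences above and below the median of all regions occur across the whole range of distances.

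The lowest difference was beside Rest, which encodes a repressor of neuronal genes. A region listing Mir5098 (chr5:77265547-77266341), centred 450 bp from the Rest start, had 21.7 with vehicle and 1.33 with inhibitor, 16.3-fold lower and a difference of -3.28. That inhibitor average was the lowest of the set, with a peak of 2, so the size of the difference rests on a very low value. Without a pseudocount it was -4.02. The next region along the chromosome, also listing Mir5098 (chr5:77266419-77267340), had 34.0 with vehicle and 10.2 with inhibitor, a difference of -1.65, and was called in both libraries. The remaining Mir5098 region, on the other side of the lowest, had a difference of -1.40, so the neighbouring regions at the Rest start lay far apart.

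Mirlet7i had the next lowest difference, and its region (chr10:122984993-122986113) covers the hairpin shown above. It had 26.4 with vehicle and 2.37 with inhibitor, 11.2-fold lower and a difference of -3.02, and the nearest start of another gene in the list, Mon2, was 90952 bp away. The neighbouring Mirlet7i region had 10.6 and 1.60, a difference of -2.16. Neither was called with inhibitor.

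Mir186, inside the zinc finger gene Zranb2, had the third lowest difference (chr3:157533751-157535353). This region at the Zranb2 start had 40.2 with vehicle, among the 10 strongest of the set, but 4.21 with inhibitor, a difference of -2.98. It was the strongest vehicle region of the set that was not called with inhibitor. The Zranb2 promoter lies inside it and is printed from RefSeq (GRCm38, chr3:157533915-157534214, plus strand, 300 bases) with each CG in capitals. It holds 25 CG, and 18.4% of the 32851 promoters of this length in the reference hold as many, where the median is 7.
Zranb2 promoter: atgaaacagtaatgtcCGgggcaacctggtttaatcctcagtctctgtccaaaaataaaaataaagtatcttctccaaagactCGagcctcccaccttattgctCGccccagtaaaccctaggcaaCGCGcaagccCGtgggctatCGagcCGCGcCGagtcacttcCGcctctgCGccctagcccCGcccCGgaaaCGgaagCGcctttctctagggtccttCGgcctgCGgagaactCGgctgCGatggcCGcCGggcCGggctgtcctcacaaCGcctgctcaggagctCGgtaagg

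The other regions among the 10 lowest differences ranged from -2.49 to -2.33. They lay beside Mir3068 (at the start of Alkbh1, 31.3 with vehicle and 4.73 with inhibitor), Mir1949 (at Matr3, 37.3 and 6.01), Mir5107 (beside Cd74, which encodes the invariant chain of MHC class II, 22.1 and 3.30), Mir193 (34.3 and 5.82), Mir219-1 (at Ring1, a Polycomb protein, 28.4 and 4.80), Mir423 (48.4 and 8.75) and Mir1956 (at Eif4e, the cap-binding translation factor, 26.7 and 4.50). Of these only the Mir193 and Mir423 regions were called with inhibitor.

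The highest differences came from regions weak with vehicle, and over the whole table such regions also had higher median differences. Vehicle signal is a term of the difference, so this order can be partly built in. The 10 highest ranged from -0.86 to -0.51, with vehicle signal between 10.6 and 12.7. The region listing Mir1900, at the start of Icam4, had 11.2 with vehicle and 7.56 with inhibitor, a difference of -0.51, and was called in both libraries. The region listing Mir25, Mir93 and Mir106b at the Cops6 start had 11.3 and 6.69, a difference of -0.68. That of Mir804 had 12.7 and 7.75, -0.65. All 10 were above the median of the table once recentred, by 0.75 to 1.09. The Cops6 promoter, inside its region (GRCm38, chr5:138160852-138161151, plus strand), holds 18 CG, a number that 29.7% of promoters reach.
Cops6 promoter: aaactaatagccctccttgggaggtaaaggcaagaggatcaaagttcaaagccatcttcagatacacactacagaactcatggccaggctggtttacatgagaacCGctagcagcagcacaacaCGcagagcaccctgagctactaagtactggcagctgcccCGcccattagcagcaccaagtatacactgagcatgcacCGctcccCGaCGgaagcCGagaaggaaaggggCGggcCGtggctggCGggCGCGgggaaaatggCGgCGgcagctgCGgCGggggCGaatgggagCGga

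Mir25, Mir93 and Mir106b lie within Mcm7, whose start carried the other region of the cluster. That region had 15.7 with vehicle and 5.17 with inhibitor, a difference of -1.44, and 0.17 after recentring. It covers a pair of annotated Mcm7 promoters, which hold 24 and 26 CG.

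The strongest vehicle signal was in a region at the start of Mir1893, with 60.8 and 13.6 with inhibitor, a difference of -2.08. A region upstream of the Mir23a cluster (position -5436 bp from the nearest microRNA start) had 58.5 and 12.5, -2.14. Both were called with inhibitor. A region listing Mir210 had 42.4 and 9.79, a difference of -2.01. It lay 337 bp from the Phrf1 start and at position -7632 bp from that of Mir210. The region over the Mir210 hairpin had 12.3 and 4.54, -1.26, and was not called with inhibitor. A region listing Mir1934, 675 bp from the Eif4a1 start and 8705 bp from that of Mir1934, had 41.9 and 9.77, -1.99. A region listing Mir190b, 9959 bp from the Mir190b start, had 40.7 and 9.26, -2.02.

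Families were compared by seed, although members of a cluster share a region and are not independent. The 6 let-7 genes (Mirlet7a-1, Mirlet7d, Mirlet7e, Mirlet7f-1, Mirlet7g and Mirlet7i) were listed in 5 regions with differences of -3.02 to -1.63, a median of -1.86 and -0.26 after recentring. The region listing Mirlet7d, Mirlet7f-1 and Mirlet7a-1 had 25.0 with vehicle and 7.16 with inhibitor. That listing Mirlet7g, at the start of Wdr82, had 19.5 and 4.64. The region listing Mirlet7e with Mir99b and Mir125a had 26.0 and 7.73, and was the only let-7 region called with inhibitor. All 5 overlapped CpG islands, which the whole table also showed with lower medians.

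The 4 genes with the AGCAGCA seed were listed in 2 regions. The region listing Mir15b and Mir16-2 had 38.6 with vehicle and 7.90 with inhibitor, a difference of -2.15. It lay at the start of their host gene Smc4, at position -4310 bp from the nearest microRNA start. The region listing Mir497 and Mir195 had 40.3 and 7.59, -2.26. It lay at position -918 bp from the start of 0610010K14Rik and 3790 bp from the nearest microRNA start. Neither region covered a hairpin. Both regions remained below the median of the table after recentring (-0.55 and -0.66). The other regions of the strongest vehicle class, without microRNA genes, had a median difference of -2.05.

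The miR-26 genes (Mir26a-1, Mir26a-2 and Mir26b) were listed in 10 regions with differences of -1.87 to -0.99 and a median of -1.56, which became 0.05 after recentring, and none was called with inhibitor. Mir26b, inside the phosphatase gene Ctdsp1, had 8 of them, the most of any gene. The region covering its hairpin had 12.3 with vehicle and 3.30 with inhibitor, a difference of -1.63. The regions of Mir25, Mir92b and Mir367 had differences of -1.75 to -0.68, with both regions of Mir25 (-1.44 and -0.68) inside that range.

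Of the myeloid list of 49 microRNAs, 23 had a region and 26 had none. The 36 regions had a median difference of -1.56 (0.05 after recentring), 33 (91.7%) were at least 2-fold lower, against 93.4% of all regions, and 8 (22.2%) were called with inhibitor, against 10.3% of all regions and 16.1% of the microRNA regions. Mir142 had 4 regions. The region covering its hairpin had 39.9 with vehicle and 9.58 with inhibitor, a difference of -1.95, and the most upstream one had 37.7 and 9.12, -1.94, both called with inhibitor. The other 2 Mir142 regions had 21.7 and 7.08 (-1.49) and 11.6 and 4.36 (-1.24), above the median of the table. The largest differences at Mir142 were thus at its strongest regions. The whole table showed the same order, with lower medians in the stronger classes of vehicle signal. Because vehicle signal enters the difference, this order can be partly built in.

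Mir223, whose host transcript in the reference is F630028O10Rik, had 2 weak regions, with 10.2 and 2.81 (-1.56) and 13.1 and 4.04 (-1.48), both slightly above the median of the table and called with vehicle alone. The promoter of F630028O10Rik, inside the second region, holds 2 CG, a number that 85.9% of promoters reach (GRCm38, chrX:96239676-96239975, plus strand).
F630028O10Rik promoter: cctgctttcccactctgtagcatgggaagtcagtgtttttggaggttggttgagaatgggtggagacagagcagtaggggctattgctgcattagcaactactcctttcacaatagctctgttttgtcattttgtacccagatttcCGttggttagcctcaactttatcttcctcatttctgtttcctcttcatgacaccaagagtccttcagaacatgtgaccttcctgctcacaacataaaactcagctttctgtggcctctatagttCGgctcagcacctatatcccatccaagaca

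The other loci of the list varied. Mir21, within Vmp1 and known as a microRNA induced in tumours and inflammation, had 23.4 with vehicle and 4.81 with inhibitor in the region covering its hairpin, a difference of -2.07. The 4 regions of the Mir23a, Mir27a and Mir24-2 cluster had differences of -2.14, -1.79, -1.75 and -1.12. Mir146b, of a family that dampens NF-kappaB signalling, had 22.7 and 6.43 (-1.67, called in both) in the strongest of its 3 regions, and Mir146 had 11.0 and 2.71 (-1.69). The 3 regions of Mir34a, a target of p53, ranged from -1.87 to -0.84, and the 3 of Mir126, inside the endothelial gene Egfl7, from -1.70 to -0.85. Mir132 and Mir212 shared 3 regions with differences of -1.84 to -1.05. No region was assigned within the limit to Mir155, to the Mir17 to Mir92-1 cluster or to Mir181a-1, and the nearest region centre was 120757 bp from Mir155 and 2734342 bp from Mir92-1.

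**Figure D4:**
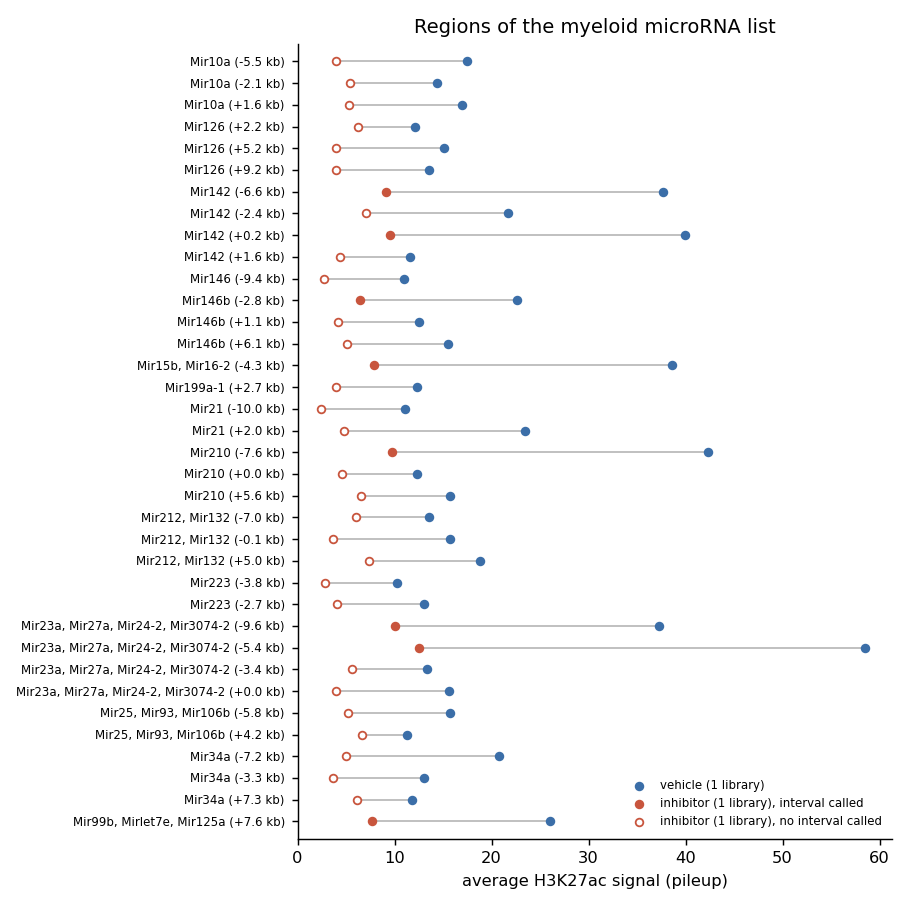
Average H3K27ac signal (horizontal, pileup) of the 36 regions of the myeloid microRNA list with vehicle and with inhibitor, 1 library each, labelled with the distance from the microRNA start. Filled inhibitor points mark regions called with inhibitor. Every inhibitor point lies left of its vehicle point, and the 8 called regions include the strongest with vehicle.

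Genes with several regions showed how far neighbouring regions differed. Of the 193 genes, 101 had 1 region and 44 had 3 or more. Over those 44, the spread between the lowest and highest difference of a gene had a median of 0.65 and ran from 0.08 to 1.88, the last at Mir5098. Every region was at least 2-fold lower in 169 genes (87.6%), against 91.6% of the 11995 genes with a region within 10000 bp of their start. No region was at least 2-fold lower in 9 genes (4.66%), against 3.16% of those genes, and the 9 were Mir143, Mir145, Mir150, Mir1901, Mir1903, Mir1940, Mir26a-2, Mir328 and Mir804. A region called with inhibitor was found for 60 of the 193 genes, against 22.0% of the genes with a region within 10000 bp and 25.0% of all genes over regions at any distance. Genes of a cluster share regions, so 1 called region can count for several genes. Counted by region, the share was 16.1%, against 13.9% of regions with another gene's start within 10000 bp and 10.3% of all regions.

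The genes that make and use microRNAs were described from a list of 35, of which 32 had a region and Ddx17, Lin28b and Hnrnpa2b1 had none. A gene took its region with the highest mean signal. All 32 were at least 2-fold lower, where the share of all genes was 96.1%. The median difference was -1.98 against -1.78 for all genes, with 23 of the 32 below the latter. Vehicle signal, from 10.7 (Dis3l2) to 58.5 (Cnot7) at these regions, was not matched in this comparison. In the strongest class of vehicle signal, regions outside the microRNA set had a median difference of -2.05, and in the next class -1.89. The strongest region was called with inhibitor for 12 of the 32, against 23.2% of all genes. Recentred values of these genes use the median of all regions (-1.61), which is higher than that of all genes at their strongest region (-1.78).

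Of the nuclear steps, Drosha, the RNase III enzyme, had 22.2 with vehicle and 5.83 with inhibitor, a difference of -1.76. Dgcr8, its RNA-binding partner, had 30.9 and 6.08 (-2.17) in a region 39994 bp from its start, and a promoter region, which also lists Mir1306, with 11.2 and 3.11 (-1.57). Xpo5, the exporter, had 22.2 and 7.15 (-1.51), 0.10 after recentring, in a region 45529 bp from its start, and a promoter difference of -1.90. Dicer1 had 14.5 and 6.30, a difference of -1.08, above the median of the table by 0.52. Its other region had a difference of -1.83, below that median.

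Of the effector genes, Ago2, the Argonaute that cuts targets, had 16 regions, the strongest, 34137 bp from its start, with 41.9 and 11.0 (-1.83). Tnrc6a, which links Argonaute to the deadenylases, had 40.5 and 10.2 (-1.89). The lowest was Cnot6, a deadenylase of the CCR4-NOT complex, with 22.0 and 2.87 (-2.57), and the highest was Lin28a, which blocks let-7 maturation, with 13.9 and 6.37 (-1.02), 0.59 after recentring, in a region 18099 bp from its start.

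**Figure D5:**
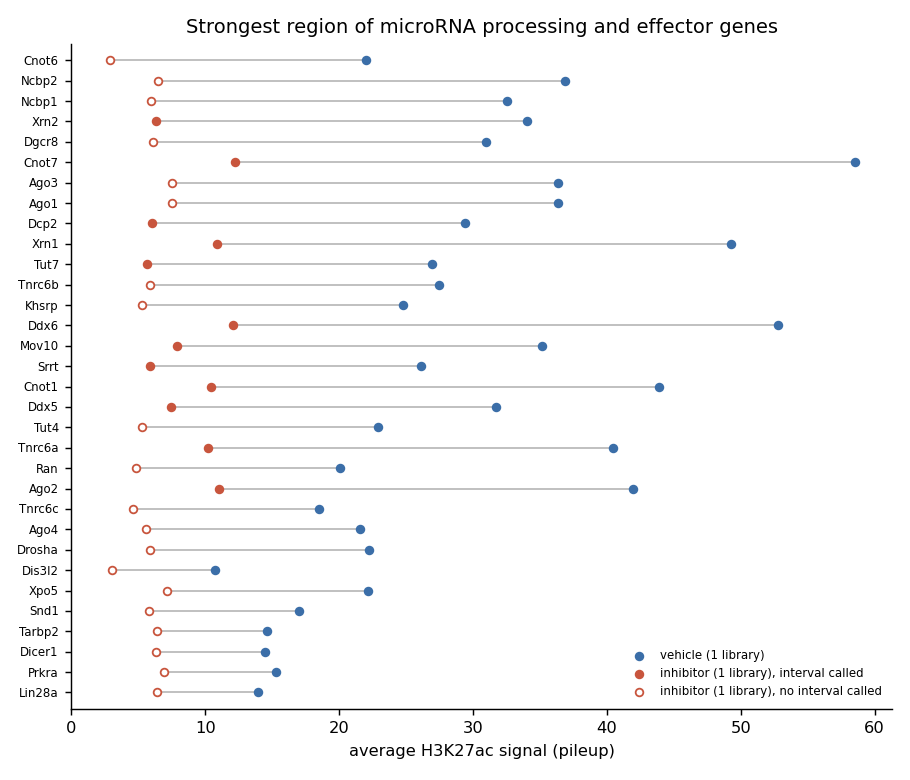
Average H3K27ac signal (horizontal, pileup) with vehicle and with inhibitor, 1 library each, at the strongest region of 32 genes that make or use microRNAs, ordered from the lowest difference to the highest. Filled inhibitor points mark the 12 regions called with inhibitor. Ago1 and Ago3 share a region, Cnot6 is at the top and Lin28a at the bottom.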

How the data were processed

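MDSC H3K27ac was measured in 1 vehicle and 1 inhibitor library. Per the labels' protocols, chromatin was fixed with 1% formaldehyde, sequenced as paired 150 bp reads from fragments of about 380 bp, and spiked with Drosophila chromatin and an H2A.v antibody. BWA, SICER, hg19 and dm3 are named in the submitters' processing notes, without versions. The deposited table gives average and peak signal (fragment pileup) per merged region. Averages look like means over non-empty 32 bp bins, which could overstate weak signal. Of 304 pairs of a region and a microRNA checked, all 304 matched GRCm38 hairpin starts within 50 bp, so that build is named. Of the genes, 156 matched RefSeq hairpins, 6 by an older symbol.

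Differences used a pseudocount of 1 and were computed with pandas 2.3.3 and numpy 2.4.6, checked on simulated data. No test was run. Named regions were the 10 strongest with vehicle, the 10 lowest and 10 highest differences, up to 15 called with inhibitor, those listing 3 or more microRNAs and the myeloid list, and the text prints part of them. Members and lists were chosen with earlier results of these data known. Alternatives were peak signal, other pseudocounts, recentring, a signal filter, other distance and length limits, and leaving out regions at another gene's start.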

Additional observations from a re-analysis of the deposited data

How the results depend on the processing

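Each treatment has 1 library, so no replicate could be left out. No paired analysis was possible because there is 1 library per treatment and no test. The median difference of the microRNA regions kept its direction with peak signal (-1.59), no pseudocount (-1.80), a pseudocount of 0.961, the weakest regions left out (-1.63 over 249), any distance (-1.60) and regions of at least 380 bp, which left all 304. Recentring on all regions, a shift of 1.61, gave a median of 0.0038 and 3 regions at least 2-fold lower, and for the processing and effector genes a median of -0.37 and a count of 0. These genes took their strongest region, so their median before recentring, -1.98, is set beside -1.78 for all genes at their strongest region. Vehicle signal was not matched between the 2. A limit of 2500 bp left 94 regions, with 85 at least 2-fold lower, 16 called with inhibitor and 94 with vehicle. Without regions centred within 2500 bp of another gene's start, 141 were left. Of these, 133 were at least 2-fold lower, 15 were called with inhibitor and 141 with vehicle.

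Recentring turned the direction of 30 named results. Of these, 10 were the regions with the highest differences, none at least 2-fold lower, which came to 0.75 to 1.09. The other 20 were regions of Mir34a (0.0045), Mir223 (0.0456 and 0.1248), Mir126 (0.0567), Mir10a (0.1016 and 0.3366), Mir142 (0.1125 and 0.3673), the Mir25 cluster at Mcm7 (0.1669), Mir199a-1 (0.1672), Mir146b (0.1753 and 0.2109), Mir210 (0.3439 and 0.4657), Mir212 with Mir132 (0.3643 and 0.5544) and the Mir23a cluster (0.4851), and the genes Xpo5 (0.0997), Dicer1 (0.5229) and Lin28a (0.5878). With peak signal, 6 of the named results moved by more than 1.5 times in fold. The lowest Mir5098 region reached -4.00, Mirlet7i -3.81, Cnot6 -3.32, the Mir702 region -2.62 and that of the Mirlet7d cluster -2.39. The Mir5107 region beside Cd74 went the other way, from -2.43 to -1.66, so its place among the 10 lowest depends on the measure. The size of the common shift would depend on any spike-in scaling of the deposited values, which is not known. If the averages leave out empty bins, weak signal may be overstated, which was not tested.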

Other observations

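Regions of small nucleolar RNA genes, another class of short RNA genes often hosted by other genes, numbered 96, with a median difference of -1.76 and 17.7% called with inhibitor. Of 1005 RefSeq hairpins, 363 had a region centre within 10000 bp, of which 156 are genes listed here and 207 are not listed by these symbols in the table and were not analysed here.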
